A study of Mus musculus with 10 samples.

Results

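A set of 10 genes of transforming growth factor beta (TGF-beta) and activin signalling were followed in cultured mouse molars given insulin-like growth factor 1 (IGF1). They were the rows of the count table whose symbol in GENCODE mouse release 21 was *Inhba*, *Fst*, *Tgfb1*, *Tgfb2*, *Tgfb3*, *Tgfbr1*, *Tgfbr2*, *Acvr2a*, *Smad7* or *Tgfbi*, and all 10 were found among the 18381 genes of the table. First lower molars of wild type C57BL/6JOlaHsd embryos at embryonic day 14 were kept in hanging drops for 6 h. From each of 5 embryos, numbered 1, 2, 3, 4 and 6, one molar received mouse recombinant IGF1 at 750 ng per ml in PBS with BSA, and its partner received the same volume of PBS with BSA alone (control). Sides were balanced between treatments, each tooth was sequenced by itself, and there are therefore 5 IGF1 and 5 control samples.

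In this pathway a dimeric ligand binds a type II receptor, which phosphorylates a type I receptor. The type I receptor in turn phosphorylates Smad2 and Smad3, which enter the nucleus with Smad4 and change transcription. Activins are free to act unless follistatin holds them, whereas TGF-beta ligands are secreted in a latent complex that must be opened. In tooth germs activin is made mainly by the dental mesenchyme and is received by the epithelium, and mice without *Inhba* lack incisors and lower molars.

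Total counts were 2845773 to 8403151 in control samples and 3456634 to 8763113 in IGF1 samples, with both teeth of embryo 1 at the bottom. Levels are given as CPM, which are counts set to a common library size, scaled by TMM, a normalization that balances library composition. Changes are log2 ratios of IGF1 to control from edgeR's quasi-likelihood test with embryo as a block. Adjusted p-values are Benjamini-Hochberg values over all 14504 genes tested, and a gene was called changed when its adjusted p was under 0.05. RNA came from whole teeth, so fewer cells of a type and less RNA per cell cannot be told apart. All 8 markers of dental epithelium and all 9 markers of dental mesenchyme had counts in every sample, including *Epcam* (83.3 to 145 CPM) and *Prrx1* (674 to 987 CPM).

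Of the 10 members, 4 were called lower in the IGF1 teeth (*Inhba*, *Fst*, *Tgfb1* and *Tgfbr2*) and 0 were called higher. *Inhba* alone was called in every alternative fit. The other 3 lost the call without the embryo block. In fits with 1 embryo left out, 1 or 2 members were called, which without embryo 2 were *Inhba* and *Tgfb3*. The 4 members called in the main fit comprise an activin subunit, the activin antagonist, a TGF-beta ligand and the type II TGF-beta receptor. Their fitted log2 changes lay between -0.34 for *Tgfbr2* and -0.49 for *Tgfb1*. Of all genes tested, 11.5% were called in either direction, 4.76% as lower and 6.72% as higher. The median log2 change of the 10 members was -0.21, against -0.0038 over all genes tested. A negative value was seen for 8 of the 10, beside 7333 of all 14504 genes tested. In 4 or 5 of the 5 embryos the IGF1 tooth was lower for 7 of the 10 members, as it was for 29.1% of all genes tested.

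**Figure D1:**
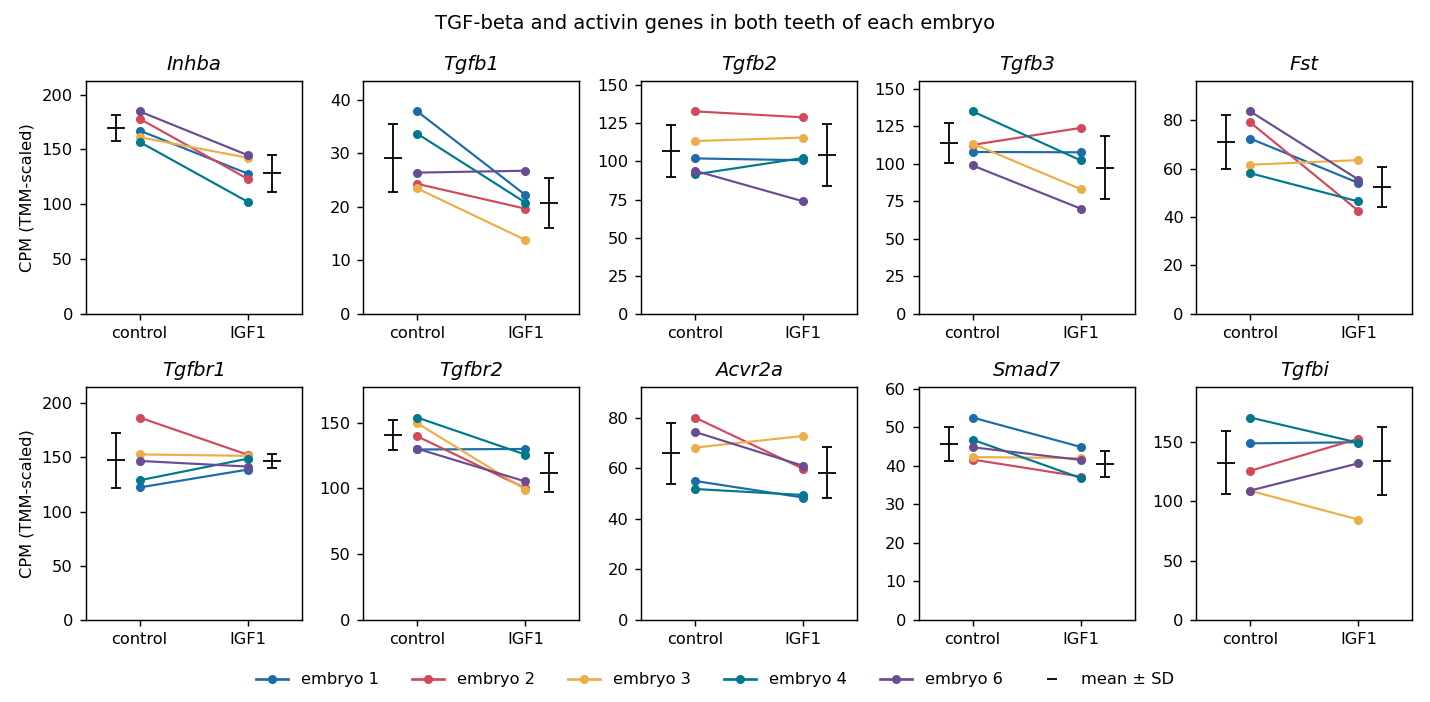
TMM-scaled CPM (vertical axis, from 0) of the 10 members in the control and the IGF1 tooth of each embryo, 1 line per embryo, with the group mean ± SD (n = 5) in black. The *Inhba* lines all run downward and its groups do not overlap, whereas the lines of *Tgfbr1* and *Tgfbi* run both ways.

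*Inhba* encodes the activin beta A subunit, which forms activin A as a homodimer. The gene (ENSMUSG00000041324) lies on chromosome 13 from 16011851 to 16031621 in GRCm38, on the plus strand. Its level in the control teeth of embryos 1, 2, 3, 4 and 6 was 167, 178, 161, 157 and 185 CPM, and in their IGF1 teeth 128, 123, 142, 102 and 145 CPM. Every IGF1 tooth was below every control tooth, a separation downward that 3.03% of all genes tested showed. The group means were 169.7 ± 11.6 CPM in control and 128 ± 17.2 CPM in IGF1 teeth (SD, n = 5). With IGF1 *Inhba* fell by 24.9% (log2 change -0.41 ± 0.076, SE, edgeR adjusted p = 0.00601). Each of the 5 embryos showed the fall, which was smallest in embryo 3 (-0.18) and largest in embryo 4 (-0.62). The call held in all 13 alternative fits, with adjusted p from 0.000301 to 0.0357.

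*Fst* encodes follistatin, the secreted protein that binds activin and keeps it from its receptors. The gene (ENSMUSG00000021765) lies on the minus strand of chromosome 13 from 114452290 to 114458951. The control teeth of embryos 1, 2, 3, 4 and 6 held 72.5, 79.2, 61.7, 58.2 and 83.8 CPM, and the IGF1 teeth 54.1, 42.6, 63.6, 46.4 and 55.5 CPM. The groups overlapped, and 4 of 5 embryos had the lower value with IGF1. Embryo 2 fell most (-0.90) and embryo 3 was slightly higher (0.044). Its fitted log2 change was -0.44 ± 0.12 (SE, edgeR adjusted p = 0.0365). The call was lost when any embryo but embryo 3 was left out: without embryo 1, 2, 4 or 6 the edgeR adjusted p was 0.0875, 0.108, 0.0800 or 0.124. Without embryo 3 it was 0.00763. Exons of *Fst* share 115 bases with an antisense gene, *Gm47040*, and the strand setting of the counting is not given in the sources used here.

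Both the activin subunit and its antagonist were thus lower. Per kb of exon, the level of *Inhba* was 1.73 ± 0.162 times that of *Fst* in control teeth and 1.77 ± 0.208 times in IGF1 teeth (SD, n = 5). This ratio was higher with IGF1 in 3 embryos and lower in 2, and its ranges of 1.58 to 1.94 and 1.58 to 2.08 overlapped. It is given as a description and was not tested.

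*Tgfb1* encodes a TGF-beta ligand that is widely made by endothelial and blood-derived cells. The gene (ENSMUSG00000002603) lies on the plus strand of chromosome 7 from 25687002 to 25705077. In the order of embryos 1, 2, 3, 4 and 6, the control teeth had 37.8, 24.3, 23.4, 33.6 and 26.4 CPM. The IGF1 teeth had 22.2, 19.6, 13.8, 20.8 and 26.7 CPM. Embryos 1, 3 and 4 changed by -0.77, -0.76 and -0.70 on the log2 scale, embryo 2 by -0.31 and embryo 6 by 0.019. The highest IGF1 tooth, that of embryo 6, was above the 3 lowest control teeth. The fitted log2 change was -0.49 ± 0.13 (SE, edgeR adjusted p = 0.0356). It is the least counted member, with 77 to 237 counts in a tooth. The edgeR adjusted p was 0.106, 0.0554, 0.0860 and 0.130 without embryo 1, 2, 3 or 4, and 0.0155 without embryo 6.

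*Tgfb2* and *Tgfb3*, the other ligands of this class, were not called. *Tgfb2* had 102, 133, 113, 91.5 and 93.9 CPM in the control teeth and 101, 129, 116, 102 and 73.8 CPM in the IGF1 teeth of embryos 1, 2, 3, 4 and 6. Its groups overlapped and its log2 change was -0.042 ± 0.081 (SE, edgeR adjusted p = 0.789), an interval of -0.20 to 0.12 at 2 SE. *Tgfb3*, which is known for its role in palate fusion, had 108, 113, 114, 135 and 98.9 CPM in control teeth and 108, 124, 83.1, 102 and 70.1 CPM in IGF1 teeth. Embryos 3, 4 and 6 were lower by 0.40 to 0.50 on the log2 scale, embryo 1 was level and embryo 2 was higher. The fitted change was -0.25 ± 0.10 (SE, edgeR adjusted p = 0.148), and without embryo 2 it was -0.35 and past the threshold (edgeR adjusted p = 0.0469). On the opposite strand, exons of *Tgfb3* share 163 bases with *Gm37804* and 257 with *Gm48008*, and those of *Tgfb2* share 124 with *Gm29491*.

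Summed per kb of exon, the transcripts of *Tgfb1*, *Tgfb2* and *Tgfb3* came to 57.8 ± 4.56 CPM per kb in control and 50.9 ± 8.82 CPM per kb in IGF1 teeth (SD, n = 5). *Tgfb1* made up 7.88% to 13.2% of that sum in control and 5.78% to 13.7% in IGF1 teeth, the rest being *Tgfb2* and *Tgfb3*. The ranges of the sum overlapped, and neither value was tested.

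*Tgfbr2*, the type II receptor that binds TGF-beta ligands, was the 1 receptor called among the 3 that are members. The gene (ENSMUSG00000032440) lies on the minus strand of chromosome 9 from 116084293 to 116175360. Control teeth of embryos 1, 2, 3, 4 and 6 had 129.5, 139.5, 149.5, 154 and 130.1 CPM, and IGF1 teeth 129.9, 100.1, 99.1, 126 and 105 CPM. The IGF1 tooth of embryo 1 was level with its control, and the other 4 embryos fell by 0.29 to 0.59 on the log2 scale. The groups overlapped only because that tooth lay just above the control tooth of embryo 1. Over all embryos the fitted log2 change was -0.34 ± 0.086 (SE, edgeR adjusted p = 0.0278). The edgeR adjusted p was 0.0158 without embryo 1, and 0.0772, 0.0625, 0.0776 or 0.0692 without embryo 2, 3, 4 or 6.

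*Tgfbr1*, the type I receptor that carries the TGF-beta signal onward, was not called. It had 122, 187, 153, 129 and 147 CPM in control teeth and 139, 153, 152, 149 and 142 CPM in IGF1 teeth of embryos 1, 2, 3, 4 and 6. Its log2 change was 0.0015 ± 0.082 (SE, edgeR adjusted p = 0.994), with an interval of -0.16 to 0.17 at 2 SE, and its sign turned under other scalings. The level of *Tgfbr1* relative to *Tgfbr2*, per kb of exon, was 1.32 ± 0.240 in control and 1.67 ± 0.256 in IGF1 teeth (SD, n = 5). It was higher with IGF1 in 5 of 5 embryos, though the ranges of 1.05 to 1.68 and 1.34 to 1.92 overlapped, and it was not tested.

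*Acvr2a*, a type II receptor for activins, was not called. Its control teeth had 55.0, 80.1, 68.2, 51.8 and 74.4 CPM and its IGF1 teeth 48.4, 59.8, 72.8, 49.4 and 61.0 CPM. It was lower in 4 of 5 embryos, with a log2 change of -0.17 ± 0.088 (SE, edgeR adjusted p = 0.245) and an interval of -0.35 to 0.0036 at 2 SE. Exons of *Acvr2a* share 446 bases with those of *Orc4* on the opposite strand. Without the strand, the assignment of reads from these bases is uncertain.

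*Smad7*, the inhibitory Smad that is induced by TGF-beta signalling and shuts off its receptors, was also not called. It had 52.6, 41.6, 42.3, 46.8 and 44.8 CPM in control teeth and 44.9, 37.2, 42.0, 36.8 and 41.5 CPM in IGF1 teeth. All 5 embryos had the lower value with IGF1, which among the members held for *Inhba* and *Smad7* (2 of 10) and among all genes tested for 11.2%. The groups overlapped, and the fitted log2 change was -0.17 ± 0.082 (SE, edgeR adjusted p = 0.222).

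*Tgfbi*, a secreted matrix protein named for its induction by TGF-beta, had 149, 126, 109, 171 and 109 CPM in control teeth and 150.0, 153, 84.7, 149.6 and 132 CPM in IGF1 teeth. Embryos 2 and 6 were higher with IGF1, embryos 3 and 4 were lower, and embryo 1 was level. Its log2 change was 0.0018 ± 0.099 (SE, edgeR adjusted p = 0.994), with an interval of -0.20 to 0.20 at 2 SE and a sign that turned under upper quartile scaling.

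**Figure D2:**
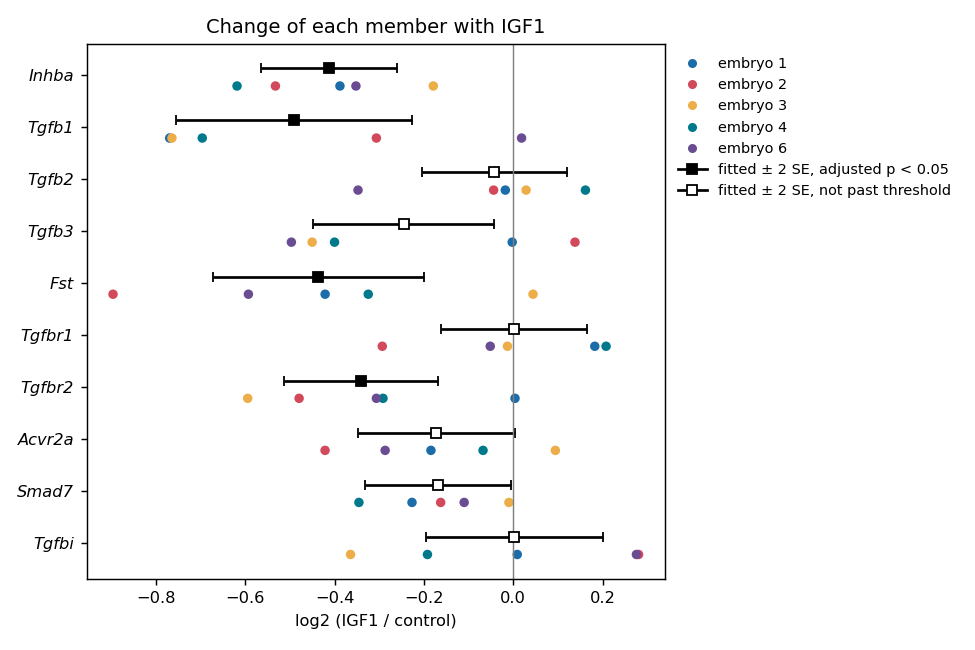
Change of each member with IGF1 as log2 (IGF1 / control) on the horizontal axis. Squares are fitted values with bars of 2 SE, filled where the adjusted p was under 0.05, and coloured dots are the 5 embryos. The filled squares are *Inhba*, *Tgfb1*, *Fst* and *Tgfbr2*, and the embryos of *Inhba* all lie below 0.

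Levels of the members differed several fold when set per kb of exon, counted over the union of all annotated exons. The order between genes, and the ratios and shares per kb given above, rest on that choice of length. In control teeth *Tgfbi* (35.2 ± 7.13 CPM per kb) and *Tgfb3* (33.6 ± 3.94) were highest and their ranges overlapped. *Inhba* followed with 26.6 ± 1.82 CPM per kb, below every value of *Tgfb3*. The next in order were *Tgfbr1* (22.6 ± 3.87), *Tgfb2* (18.4 ± 2.93), *Tgfbr2* (17.2 ± 1.35), *Fst* (15.5 ± 2.40), *Acvr2a* (11.6 ± 2.15) and *Smad7* (10.1 ± 0.972). From *Inhba* down to *Smad7*, each neighbouring pair had overlapping ranges. *Tgfb1* was lowest with 5.77 ± 1.25 CPM per kb, below every value of *Smad7* (SD, n = 5 throughout).

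**Figure D3:**
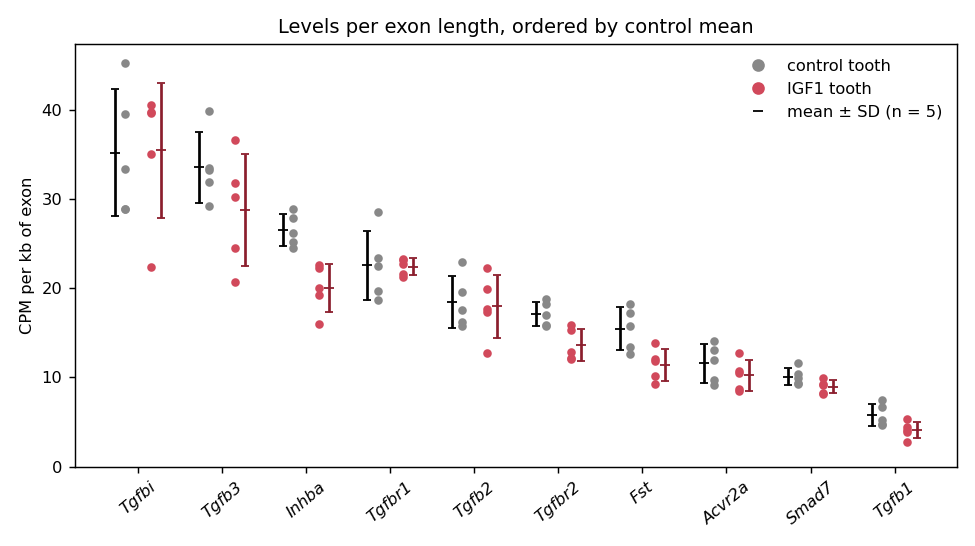
CPM per kb of exon (vertical axis, from 0) of each member, ordered by the control mean, with 1 point per tooth and the mean ± SD (n = 5) beside each group. *Tgfb1* sits lowest at 5.77 CPM per kb in control teeth and *Tgfbi* highest at 35.2.

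The DNA just before the start sites of the members that fell is shown because these genes were called in 1 direction. RefSeq promoter entries (GRCm38.p6) were found for 3 of the 4, the other being *Fst*. The 250 bases before each start are given 5′ to 3′ on the gene's own strand. They are chr13:16011601-16011850 on the plus strand for *Inhba*, chr7:25686752-25687001 on the plus strand for *Tgfb1* and chr9:116175364-116175613 on the minus strand for *Tgfbr2*. Capitals mark a match to any of 5 motifs searched on both strands, which overlapped nowhere in them: CAGAC (the core of the SMAD box), TGANTCA (AP-1), GTAAACA (FoxO), ACGTG (hypoxia-inducible factor) and GGAATG (TEAD).
Inhba: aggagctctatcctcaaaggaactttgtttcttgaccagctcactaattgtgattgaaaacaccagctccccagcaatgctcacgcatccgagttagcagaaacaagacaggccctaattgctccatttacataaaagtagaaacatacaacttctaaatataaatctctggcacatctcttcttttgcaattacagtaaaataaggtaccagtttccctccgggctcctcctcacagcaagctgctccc
Tgfb1: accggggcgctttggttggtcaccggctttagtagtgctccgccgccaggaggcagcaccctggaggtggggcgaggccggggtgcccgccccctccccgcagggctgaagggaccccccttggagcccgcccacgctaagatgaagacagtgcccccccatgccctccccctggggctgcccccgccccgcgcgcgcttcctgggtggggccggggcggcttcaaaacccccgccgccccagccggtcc
Tgfbr2: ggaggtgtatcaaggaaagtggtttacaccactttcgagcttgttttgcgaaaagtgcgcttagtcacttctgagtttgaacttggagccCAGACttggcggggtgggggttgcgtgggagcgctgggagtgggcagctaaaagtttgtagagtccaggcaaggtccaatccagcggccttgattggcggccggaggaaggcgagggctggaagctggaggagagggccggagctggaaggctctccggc
The only match was CAGAC in *Tgfbr2*, from 160 to 156 bases before the start. Of 32851 promoter windows of the same length, 42.2% hold CAGAC, 6.75% TGANTCA, 3.17% GTAAACA, 16.6% ACGTG and 12.6% GGAATG. The windows differ in base composition. G and C make up 43.2% of the *Inhba* window, 58.4% of that of *Tgfbr2* and 75.2% of that of *Tgfb1*, against a median of 52.4% over all windows. They hold 3, 12 and 21 CG pairs, with a median of 6 over all windows.

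Around these members, 60 further genes of the pathway are described by role, of which 53 had a row and 49 passed the filter on low counts. Of these 49, 7 were lower with IGF1 and 42 were not called, beside 4.76% lower among all genes. The count called was 3 without embryo 4, 11 without embryo 3 (9 lower and 2 higher) and 12 when at least 10 counts were asked of every sample. Over all genes, 986, 1602 and 1832 were called in these fits, against 1666 in the main fit. The median log2 change of the 49 was -0.070. A negative value was seen for 32 of the 49, beside 7333 of all 14504 genes tested. The groups did not overlap for 5 of the 49, beside 1 of the 10 members and 7.25% of all genes tested.

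Upstream of the receptors, *Thbs1* fell most of these genes. It encodes thrombospondin 1, a matrix protein that can open the latent TGF-beta complex. Control teeth of embryos 1, 2, 3, 4 and 6 had 175, 169, 203, 219 and 191 CPM, and IGF1 teeth 93.6, 70.6, 66.7, 96.6 and 116 CPM. The groups did not overlap, and the log2 change was -1.14 ± 0.11 (SE, edgeR adjusted p = 0.000153). None of the other 12 listed genes for latency and activation was called, among them the latent binding proteins *Ltbp1* to *Ltbp4* and the fibrillins *Fbn1* and *Fbn2*. None of the 3 further ligands tested was called, and neither were the 2 ligand antagonists tested.

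Among the 5 other receptors tested, *Tgfbr3* was lower. It encodes betaglycan, a coreceptor that presents TGF-beta ligands and inhibin. Its control teeth had 101, 108, 99.6, 122 and 88.8 CPM, and its IGF1 teeth 67.4, 67.9, 69.7, 69.6 and 65.2 CPM. Every IGF1 tooth was below every control tooth, with a log2 change of -0.61 ± 0.076 (SE, edgeR adjusted p = 0.000687).

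None of the 5 Smads and cofactors tested was called. Of the 10 intracellular inhibitors, *Tgif1* and *Bambi* were lower. *Tgif1* encodes a homeodomain repressor that binds Smad2, and it had 97.9, 85.3, 83.3, 81.0 and 95.9 CPM in control against 59.0, 56.6, 62.6, 55.6 and 50.4 CPM in IGF1 teeth. Its log2 change was -0.64 ± 0.086 (SE, edgeR adjusted p = 0.00104), with no overlap of the groups. *Bambi*, a decoy receptor without kinase activity, went from 28.0 to 39.7 CPM in control to 21.7 to 27.8 CPM in IGF1 teeth. Its log2 change was -0.44 ± 0.11 (SE, edgeR adjusted p = 0.0238), and it was not past the threshold without embryo 1 (0.0646), 4 (0.0991) or 6 (0.0660).

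Of 11 genes described as targets, *Ccn2*, *Snai2* and *Tsc22d1* were lower. *Ccn2* encodes connective tissue growth factor and changed by -0.44 ± 0.11 (SE, edgeR adjusted p = 0.0264), but not past the threshold without embryo 2 (0.0528), 4 (0.112) or 6 (0.106). *Snai2*, which encodes a repressor of epithelial genes, changed by -0.34 ± 0.079 (SE, edgeR adjusted p = 0.0193), and its adjusted p was 0.0595, 0.0848 and 0.0529 without embryo 1, 4 or 6. *Tsc22d1*, a transcriptional regulator induced by TGF-beta, changed by -0.29 ± 0.063 (SE, edgeR adjusted p = 0.0146), with 0.0578 and 0.0751 without embryo 1 or 4. Without the embryo block, *Ccn2* and *Snai2* also lost the call (edgeR adjusted p = 0.0713 and 0.115).

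**Figure D4:**
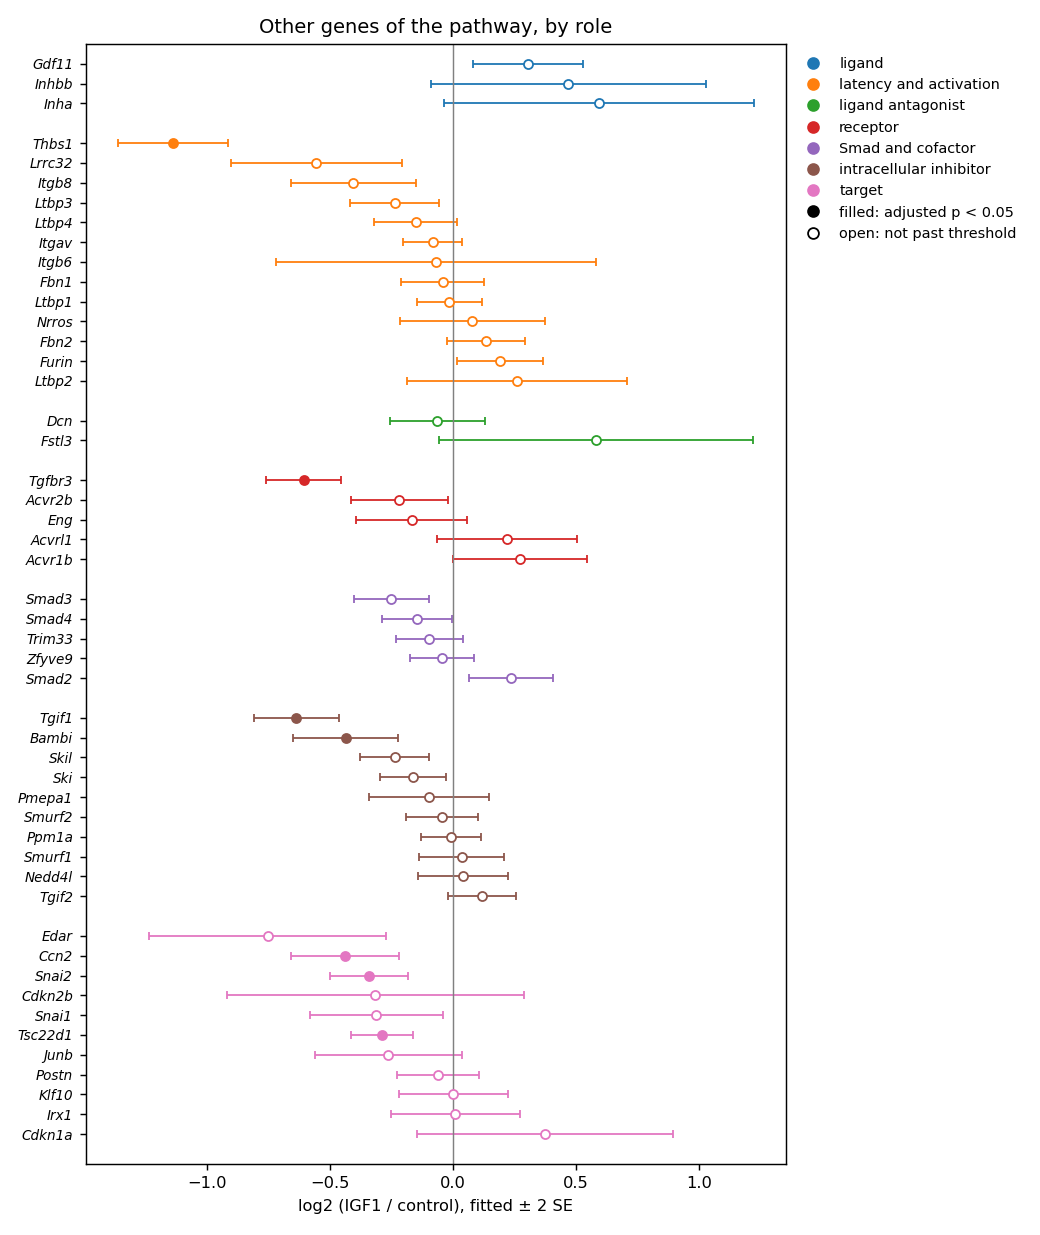
Fitted log2 (IGF1 / control) with bars of 2 SE for the 49 further pathway genes tested, coloured by role, filled where the adjusted p was under 0.05. *Thbs1* lies lowest at -1.14, followed by *Tgif1* at -0.64 and *Tgfbr3* at -0.61 among the filled points.

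Summed levels of marker lists for the cell types a tooth germ can hold are given as a description and were not tested. The summed level of 9 dental mesenchyme markers was 5354 to 6720 CPM in control and 4960 to 6599 CPM in IGF1 teeth, lower in 5 of 5 embryos by 0.12 ± 0.12 on the log2 scale (mean and SD). Of the 9 markers, *Vim* was called lower, while *Lum* (0.22) and *Col1a1* (0.14) had positive fitted log2 changes. The median fitted log2 change of the 9 was -0.11. The summed level of 8 dental epithelium markers was 1476 to 2206 CPM in control and 1762 to 2319 CPM in IGF1 teeth. It was higher in 4 of 5 embryos, with a mean of 0.18 ± 0.21. *Krt5* alone was called, as higher. It was also the largest part of the sum, at 569 to 997 CPM in control and 854 to 1196 CPM in IGF1 teeth. The median fitted log2 change of the 8 was -0.0086. Negative fitted values were seen for 4 of the 8, the lowest being *Krt18* (-0.28). The 5 endothelial markers summed to 346 to 392 CPM in control and 273 to 362 CPM in IGF1 teeth, with a mean log2 of -0.26 ± 0.17 and 1 marker called lower, *Cdh5*. The 6 macrophage markers summed to 72.2 to 101 CPM and 56.1 to 89.9 CPM, with a mean log2 of -0.26 ± 0.16 and *Csf1r* called lower, while *Cd68* (0.27) and *Adgre1* (0.034) had positive fitted log2 changes. The 4 erythroid markers summed to 186 to 355 CPM and 131 to 248.5 CPM, with a mean log2 of -0.52 ± 0.28 and 2 of the 3 tested called lower. The last 3 lists were each lower in 5 of 5 embryos. Calls of single markers stand beside 4.76% of all genes tested called lower and 6.72% called higher. Osteoblast markers summed to 255 to 530 CPM in control and 187 to 843 CPM in IGF1 teeth, with a mean log2 of -0.057 ± 0.42. Skeletal muscle markers summed to 25.6 to 100.3 and 13.8 to 129 CPM, with a mean log2 of -0.52 ± 1.18. Most of that sum was 1 gene, *Ttn*, at 23.0 to 90.1 CPM in control and 12.85 to 109.4 CPM in IGF1 teeth. Glial markers were low (8.33 to 15.2 and 8.14 to 14.0 CPM, mean log2 -0.045 ± 0.31), with *Foxd3* at 0 in 5 of the 10 samples. The osteoblast, skeletal muscle and glial sums were each lower in 4 of 5 embryos.

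The summed level of 14 hypoxia response genes rose by 2.61 and 2.29 on the log2 scale in embryos 2 and 3 and by 0.55, 0.83 and 0.92 in embryos 1, 4 and 6. Of 13 such genes tested, 12 were called higher, beside 6.72% of all genes tested. The other, *Mxi1*, had a log2 change of -0.24 (edgeR adjusted p = 0.307). The change of *Inhba* was -0.53 and -0.18 in embryos 2 and 3, where the hypoxia list rose most, and -0.39, -0.62 and -0.35 in embryos 1, 4 and 6. With embryos 2 and 3 left out, *Inhba* and *Fst* were called and *Tgfb1* and *Tgfbr2* were not (edgeR adjusted p = 0.0970 and 0.159). The log2 change of *Tgfb1* was then -0.46, against -0.49 over all embryos, and that of *Tgfbr2* was -0.21, against -0.34. *Tgfbr2* was lowest relative to control in embryo 3 (-0.59). The sums of endothelial (-0.49), dental mesenchyme (-0.30), erythroid (-0.83) and skeletal muscle markers (-2.35, mostly *Ttn*) were lowest there too. The macrophage and glial sums were lowest in embryo 2 (-0.42 and -0.38) and the osteoblast sum in embryo 6 (-0.45), and the dental epithelium sum was highest in embryo 3 (0.41). In embryos 1, 2, 3, 4 and 6 *Tgfb1* changed by -0.77, -0.31, -0.76, -0.70 and 0.019. The endothelial sum changed by -0.11, -0.29, -0.49, -0.061 and -0.34 in the same embryos, and the macrophage sum by -0.0081, -0.42, -0.28, -0.23 and -0.36. In embryo 6 both sums were thus lower while *Tgfb1* was level. The part of cell composition or of the hypoxia response in the falls of the 4 members was not tested.

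**Figure D5:**
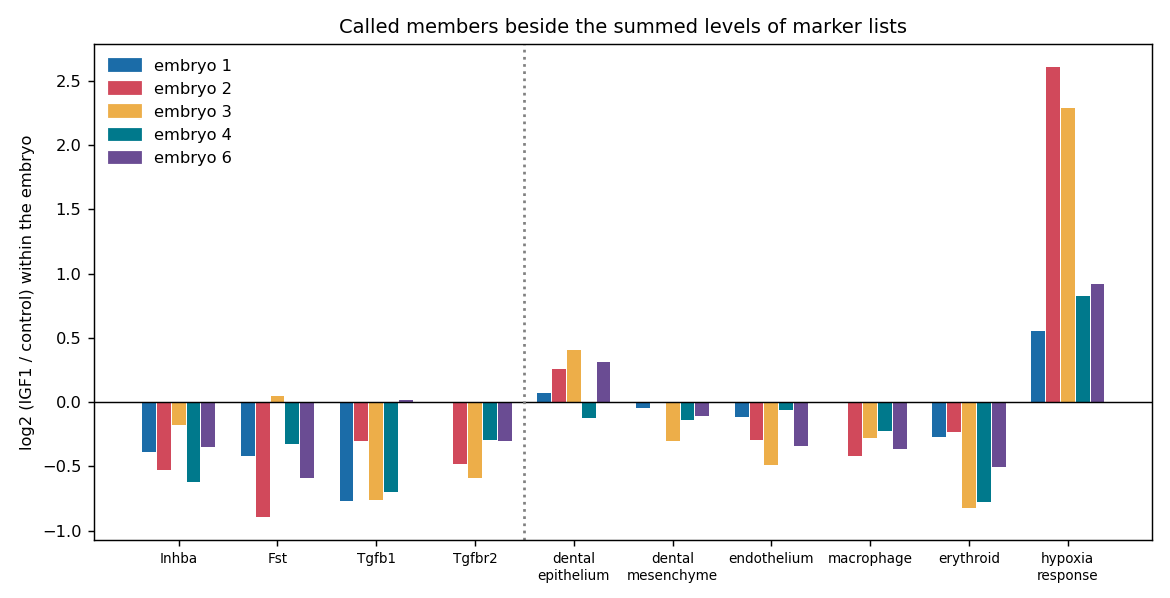
Log2 (IGF1 / control) within each embryo (vertical axis) for the 4 members that fell and for the summed levels of 6 gene lists, 1 bar per embryo. The *Inhba* bars all point down while the hypoxia bars point up, tallest in embryos 2 (2.61) and 3 (2.29).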

How the data were processed

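First lower molars from 5 embryos were sequenced, 1 tooth for each treatment. The authors deposited estimated counts per gene, without normalization and as whole numbers (0 exceptions), and each gene has at least 10 counts over all samples. The submitters' processing notes name FastQC 0.11.8, Trimmomatic 0.39, Salmon 0.99.0, DESeq2 and GRCm38. The transcript set, the strand setting and the filter are not given in the sources used here. Symbols, positions and union exon lengths came from GENCODE mouse release 21, which holds 18287 of the 18381 identifiers.

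Counts were fitted in edgeR 4.0.16 (R 4.3.3) with TMM, filterByExpr, embryo as a block and the quasi-likelihood test. Benjamini-Hochberg adjustment ran over 14504 genes, with a threshold of 0.05. SE is the unshrunken log2 change over the square root of F. Pairing follows the labels, which number teeth by embryo. After subtraction of group means, the teeth of embryos 1, 2, 3, 4 and 6 correlated at 0.319, 0.208, -0.0389, 0.170 and 0.313. Teeth of different embryos correlated at -0.194 to 0.232, highest for the IGF1 tooth of embryo 3 with the control tooth of embryo 2. For embryo 3 the correlations thus gave no sign of the labelled pairing. Samples within a group differed beyond sampling noise (chi-square per degree of freedom 4.68 to 19.4). The fit was tested on simulated data, which held no embryo effect and so do not bear on what the embryo block adds.

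All 10 members are named, and of the wider pathway list those past the threshold. A gene of the wider list is not reported here and is left out of its counts. The members and lists were chosen with earlier results of these data known. Embryos 2 and 3 were left out together as an alternative chosen after the data were seen. Other alternatives were other size factors, DESeq2 1.42.0, limma-voom (limma 3.58.1), other filters, no block, and each embryo left out in turn. Promoter windows were searched with Python 3.11.15.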

Additional observations from a re-analysis of the deposited data

Results flagged for a closer look

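One value among the genes described stood far from the other 4 of its group. *Ccn2* had 50.4 CPM in the IGF1 tooth of embryo 3, against 37.1 to 38.7 CPM in the other IGF1 teeth, and the gap to the nearest was 0.883 of the whole range (limit 0.71). Of 34 groups of samples so examined, over the 10 members and the 7 further pathway genes called, this was the only one, where chance gives about 1.7.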

How the results depend on the processing

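The count of members called was also 4 with either other scaling, in DESeq2 and limma-voom, and with either other filter on low counts. Without the replicate block, 1 member was called, *Inhba*, with 5 further pathway genes and 887 genes in all. The unblocked log2 changes of *Tgfb1*, *Fst* and *Tgfbr2* were then -0.49, -0.44 and -0.33, no longer past the threshold. Leaving out 1 embryo gave 1 (without embryo 4) to 2 members called, 3 (without embryo 4) to 11 (without embryo 3, 9 lower and 2 higher) further pathway genes and 986 (without embryo 4) to 1602 genes in all. Log2 changes in these fits ran from -0.63 to -0.42 for *Tgfb1*, -0.57 to -0.32 for *Fst*, -0.42 to -0.28 for *Tgfbr2*, -0.35 to -0.19 for *Tgfb3*, -0.094 to 0.029 for *Tgfb2*, -0.050 to 0.077 for *Tgfbr1* and -0.072 to 0.089 for *Tgfbi*. Embryos 2 and 3 were also left out together, a choice made after the data were seen. This gave 2 members, 10 further pathway genes (9 lower, 1 higher) and 1485 genes in all (642 lower, 843 higher). In that fit *Tgfb1* and *Tgfbr2* changed by -0.46 and -0.21. The sign of *Tgfbr1* turned with DESeq2-style size factors (-2.1e-05), upper quartile scaling (-0.023), DESeq2 (-0.00041), limma-voom (-0.0047), at least 10 counts in every sample (-0.00076) and no block (-0.011), and that of *Tgfbi* with upper quartile scaling (-0.022). With at least 10 counts in every sample, 12 further pathway genes were called in place of 7, and 1832 genes in all in place of 1666. The cause of these moves was not tested. Of 91 values for the 7 further pathway genes called, 78 kept their direction and call and 13 lost the call. Genes with few counts, such as *Tgfb1*, are least precise in embryo 1, whose libraries are the smallest.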

Other observations

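Some further pathway genes, all with a negative value, lay just outside the threshold, and were picked here after their values were seen. *Edar*, the ectodysplasin receptor that activin can induce in dental epithelium, had a log2 change of -0.75 ± 0.24 (SE, edgeR adjusted p = 0.0692) and was lower in 4 of 5 embryos. *Smad3*, a signal-carrying Smad, had -0.25 ± 0.076 (edgeR adjusted p = 0.0569), also lower in 4 of 5. *Skil*, which encodes the Smad corepressor SnoN, had -0.24 ± 0.070 (edgeR adjusted p = 0.0527) and was lower in 5 of 5. *Itgb8*, an integrin subunit that can release latent TGF-beta, had -0.41 ± 0.13 (edgeR adjusted p = 0.0652) and was lower in 5 of 5. *Lrrc32*, which tethers latent TGF-beta to the cell surface, had -0.56 ± 0.17 (edgeR adjusted p = 0.0646) and was lower in 4 of 5. Positive values were seen as well. *Smad2*, the partner of *Smad3*, had 0.24 ± 0.085 (edgeR adjusted p = 0.0998) and was higher in 5 of 5. The 3 further ligands tested, *Inha*, *Inhbb* and *Gdf11*, had 0.59, 0.47 and 0.30, each higher in 4 of 5 and not past the threshold (edgeR adjusted p = 0.265, 0.317 and 0.107).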
